A study of Mus musculus with 8 samples.

Results

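The genes described here are Nod1, Nod2, Ripk2, Lrrk2 and Xiap, which encode the cytosolic NOD receptors and their closest partners. They are 5 of the 55414 gene IDs in the count table and were found by matching Ensembl IDs to GENCODE symbols. Paneth cells, the granule-bearing secretory cells of the small intestinal crypt, were sorted by FACS from C57BL/6J mice. For 7 days, 4 mice drank Milli-Q water and 4 drank water with 25 mM ZnSO4, and 1 stranded mRNA library was made from the sorted cells of each mouse. The labels give neither the sex nor the age of the animals, both groups carry the same genotype, and the cells come from the small intestine without a division into segments.

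NOD1 and NOD2 are receptors that sense fragments of bacterial peptidoglycan inside the cell. Once activated they bind the kinase RIPK2, XIAP attaches ubiquitin chains to RIPK2, and the chains recruit the kinases that activate NF-κB and MAP kinase signalling. NOD2 is best known in Paneth cells from studies of Crohn's disease, and the kinase LRRK2 has been placed beside NOD2 and RIPK2 in the sorting of lysozyme into Paneth cell granules.

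Library totals ran from 20760764 to 24117111 counts. Values are CPM (counts scaled to a common library size) on a TMM scale, which corrects for the large and variable share of the α-defensin (Defa) genes, 27.9% to 39.9% of the counts. The zinc label was borne out by Mt2, a metallothionein that binds zinc, whose log2 fold change was 6.15 (SE 0.514, adjusted p = 0.0198 in edgeR), by Mt1 at 3.65 (adjusted p = 0.0259 in edgeR) and by the zinc exporter Slc30a1 at 2.01 (adjusted p = 0.0198 in edgeR). Markers of Paneth cells summed to between 341723 and 708441 CPM. All 5 T cell markers were at 0 counts in every library. Of 9 macrophage and dendritic markers 2, Itgax and Fcgr1, were at 0 throughout, and the others were detected at up to 42 counts in a library. Of 6 stromal and endothelial markers 4, among them Col1a1 and Dcn, were at 0 throughout, and the others were detected at up to 5 counts. Markers of other epithelial cells were present, the stem cell list at 3047 to 5728 CPM, the goblet list at 3137 to 5695 CPM and the enterocyte list at 37.9 to 80.6 CPM. No difference between the groups in the summed level of the 11 marker lists passed the threshold (exact two-sided permutation test, lowest adjusted p = 0.157). As 4 against 4 libraries cannot give a p below 0.0286, a single list could not have passed on its own.

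Whether zinc changed these genes was asked over the whole table. In all, edgeR's quasi-likelihood test with Benjamini-Hochberg adjustment passed 10 of 11988 tested genes at an adjusted p under 0.05 (0.0834%), 3 higher and 7 lower with zinc. An unadjusted p under 0.05 was found for 4.65% of tested genes, with a lower level under zinc for 2.81%, and 2.84% had zinc and water libraries that did not overlap. Of the 5 genes described here, 4 had enough counts to be tested and 0 passed the threshold, likewise in DESeq2. None of the 4 had an unadjusted p under 0.05 or groups that did not overlap.

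Nod2 (ENSMUSG00000055994, GRCm39 chromosome 8, 89373943 to 89415102, plus strand, 14 merged exons) was measured at the edge of detection. The 4 water libraries held 17, 11, 35 and 36 counts and the 4 zinc libraries held 4, 13, 40 and 18 counts. On the CPM scale these were 1.06, 0.473, 1.48 and 1.37 in water and 0.238, 0.628, 1.58 and 0.698 with zinc. The groups overlapped widely, and both the highest and the lowest of the 8 values were in zinc libraries. Counting error alone was large, since the exact Poisson 95% interval of the lowest count, 4, ran from 1.09 to 10.2 and that of the highest, 40, from 28.6 to 54.5. These intervals cover counting error only. The mean was 1.10 ± 0.453 CPM (SD, n = 4) in water and 0.786 ± 0.567 CPM (SD, n = 4) with zinc. The log2 fold change was -0.45 (SE 0.535, 95% interval -1.58 to 0.68, adjusted p = 0.998 in edgeR), so that a fall to 0.335-fold and a rise to 1.60-fold both lie within the interval. Without zinc replicate 1 the log2 fold change was -0.18, and without zinc replicate 3 it was -1.05. In the annotation an lncRNA on the opposite strand shares 688 bases of exon with Nod2, and whether the counting kept strands apart is not stated in the sources read for this work. In bulk samples, fewer cells that express a gene and less RNA per cell cannot be told apart.

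Nod1 (ENSMUSG00000038058, chromosome 6, 54900927 to 54949647, minus strand, 15 merged exons) encodes the sister receptor, which recognises a peptidoglycan fragment typical of Gram-negative bacteria. It was the more abundant receptor per kilobase in every library. The water libraries were at 7.38, 7.13, 7.15 and 8.74 CPM and the zinc libraries at 4.93, 9.03, 7.07 and 8.57 CPM. Again the lowest and the highest value were both in the zinc group, while 3 of the 4 water libraries lay close together. The means were 7.60 ± 0.771 CPM (SD, n = 4) in water and 7.40 ± 1.85 CPM (SD, n = 4) under zinc. The log2 fold change was -0.04 (SE 0.197, 95% interval -0.45 to 0.38, adjusted p = 0.998 in edgeR). It was 0.04 without water replicate 4 and 0.11 without zinc replicate 1, so these data give it no direction.

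Ripk2 (ENSMUSG00000041135, chromosome 4, 16121400 to 16163796, minus strand, 13 merged exons) encodes the kinase that both receptors use. The water libraries were at 2.69, 2.49, 3.21 and 2.10 CPM, and the zinc libraries at 1.90, 1.79, 1.90 and 2.44 CPM. Of the zinc libraries, 3 lay below every water library, and zinc replicate 4 lay above water replicate 4. The means were 2.62 ± 0.464 CPM (SD, n = 4) in water and 2.01 ± 0.296 CPM (SD, n = 4) under zinc, from 32 to 76 counts per library. The log2 fold change was -0.38 (SE 0.288, 95% interval -0.99 to 0.23, adjusted p = 0.998 in edgeR). A lncRNA on the opposite strand, Parail, shares 113 bases of exon with Ripk2.

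Xiap (ENSMUSG00000025860, chromosome X, 41148481 to 41198541, plus strand, 13 merged exons) encodes the ubiquitin ligase of the complex, which is also an inhibitor of caspases. It was the most abundant of the 5 genes and the only tested member with a higher mean under zinc. The water libraries stood close together at 21.3, 21.1, 21.8 and 22.9 CPM, and the zinc libraries were spread over 24.9, 20.3, 27.1 and 32.4 CPM. The groups overlapped through zinc replicate 2 alone, which had the lowest value of all 8 libraries. The means were 21.8 ± 0.796 CPM (SD, n = 4) in water and 26.2 ± 5.03 CPM (SD, n = 4) under zinc. The log2 fold change was 0.26 (SE 0.138, 95% interval -0.03 to 0.55, unadjusted p = 0.0715, adjusted p = 0.998 in edgeR).

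**Figure D1:**
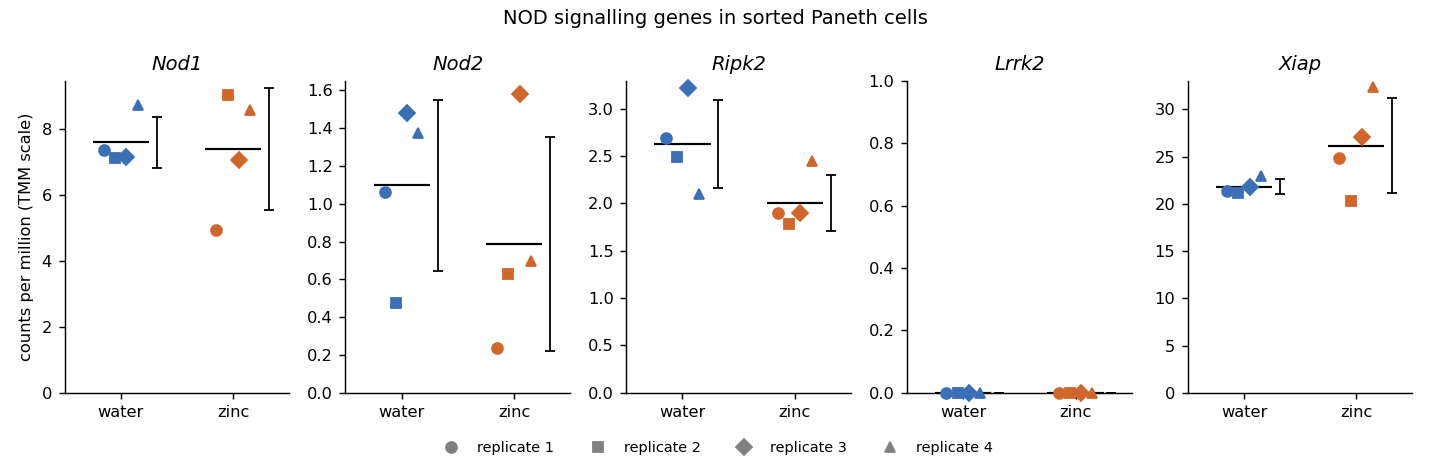
Level of each of the 5 genes in CPM on the TMM scale (vertical axes, each from 0) in 4 water and 4 zinc libraries. Points are libraries, horizontal lines are means and vertical bars are SD. The groups overlap in Nod1, Nod2, Ripk2 and Xiap, and Lrrk2 is at 0 in all 8 libraries.

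Lrrk2 (ENSMUSG00000036273, chromosome 15, 91557083 to 91700604, plus strand, 56 merged exons) had 0 counts in all 8 libraries. A count of 0 allows up to 3 counts in a library, which is 0.115 to 0.188 CPM at these depths. Lrrk2 is a long transcript, with 17941 bases of merged exons against 5017 for Nod2, so that a given level would yield more reads. At the level of Nod2 per kilobase, 622 counts would have been found over the 8 libraries, and 326 if the longest transcript is used as the length of both genes. Against 3 counts in each library, Lrrk2 was at least 4.77-fold to 47.7-fold lower per kilobase than Nod2, depending on the library, and at least 32.7-fold to 77.6-fold lower than Ripk2. With the longest transcript as length, the bound against Nod2 began at 2.50-fold. Its relative Lrrk1, a kinase of the same family, was detected in every library at a mean of 1.72 CPM per kilobase, a gene named after its values were seen. No fold change with zinc can be given for Lrrk2.

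The order of levels per kilobase of merged exons was Xiap, Nod1, Ripk2, Nod2 and Lrrk2. Mean levels over the 8 libraries were 2.43 CPM per kilobase for Xiap, 1.27 for Nod1, 0.395 for Ripk2 and 0.188 for Nod2. Each of the 3 steps down from Xiap to Nod2 was seen in 8 of 8 libraries. Each had an exact two-sided sign-flip p of 0.0078, the smallest that 8 libraries can give, and the same value after adjustment over the 3 neighbouring pairs. The order was taken from the mean levels in these same libraries, so the pairs tested and their direction were chosen from the data. Xiap exceeded Nod1 by 1.93-fold (range over libraries 1.35 to 3.03), and Nod1 exceeded Ripk2 by 3.21-fold (2.20 to 4.99). Ripk2 exceeded Nod2 by 2.43-fold, but this step was uneven and ran from 1.03-fold to 6.85-fold. The expression of the receptors and their kinase was modest for these cells. Xiap lay above 56.5% and Nod1 above 37.7% of the tested genes by level per kilobase, whereas Ripk2 lay above 14.7% and Nod2 above 6.60%.

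Ratios taken within a library do not depend on how it was scaled. The log2 ratio of Ripk2 to Xiap counts was -3.06 ± 0.284 in water and -3.68 ± 0.141 with zinc (SD, n = 4 each), a difference of -0.62 with an exact two-sided permutation p of 0.0286. That is the smallest p that 4 against 4 libraries allow. Over the 3 ratios tested the adjusted p was 0.0857, so this difference did not pass the threshold, and it could not have passed with the other ratios at their values. The ratio of Nod2 to Ripk2 differed by -0.25 (exact permutation p = 0.686) and that of Nod1 to Nod2 by 0.55 (exact permutation p = 0.429), both within the spread between libraries. The ratio of Lrrk2 to Ripk2 could not be tested because Lrrk2 had no counts.

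No pair of the 4 detected genes passed a test of correlation over the 8 libraries. Among 6 pairs the largest Pearson r in size was that of Nod1 and Nod2, at 0.514 (exact permutation p = 0.189, adjusted 0.978) and a Spearman rho of 0.0952 (exact permutation p = 0.840, adjusted 0.840). Without zinc replicates 1 and 2, the libraries farthest from the median of Nod1, r was -0.0524, so the relation rested on those libraries. The largest Spearman rho in size was -0.333, for Nod1 and Xiap (exact permutation p = 0.428, adjusted 0.840), whose Pearson r was -0.0433 (exact permutation p = 0.904, adjusted 0.978) and 0.455 without zinc replicates 1 and 2. For Ripk2 and Xiap, r was -0.121 (exact permutation p = 0.772, adjusted 0.978) and rho was -0.0952 (exact permutation p = 0.840, adjusted 0.840), and r was -0.261 without the 2 libraries farthest from the median of Ripk2. Among 8665 tested genes with a mean of at least 5 CPM, those most like each member over the 8 libraries were Hira, Tspan15 and Ascc2 for Nod1 (r 0.947 to 0.926), Rassf5, Cyld and Midn for Nod2 (0.936 to 0.913), Mtif3, Dcun1d3 and Klf16 for Ripk2 (0.920 to 0.912) and Atp11b, Faap100 and Lcorl for Xiap (0.961 to 0.922). These are the highest of all those values and share libraries and scaling, so they serve only as a description.

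Genes induced by zinc are known to be controlled by MTF1, which binds metal response elements with the cores TGCGCNC and TGCACNC. The 250 bases before each RefSeq transcription start were searched for both cores on both strands, and each match is shown in 30 bases of GRCm39 written 5′ to 3′ on the strand of the gene, with the core in capitals. The table held 2 starts for Nod1, 1 for Nod2, 1 for Lrrk2 and 3 for Xiap, and none for Ripk2. The matches of Nod1 and Nod2 are set beside one of Mt2, the zinc-responsive gene, as a reference.
Nod2, chr8:89373725-89373754, 246 to 240 bases before the start, core on the opposite strand: gagaGGGTGCAtcggctcctactgacactg
Nod1 (the more downstream start), chr6:54948689-54948718, 61 to 55 bases before the start, core on the opposite strand: aaagtcctcgaGTGTGCAgtgttttcatag
Mt2, chr8:94899107-94899136, 128 to 122 bases before the start, core on the strand of the gene: cgcagacccttTGCGCTCagctcctttgct
Nod2 and 1 of the starts of Nod1 thus had 1 core each, and Mt2 had 3. None was found before the start of Lrrk2 or the starts of Xiap. Such matches are common, as 12.5% of all 32851 RefSeq windows of this length held TGCGCNC and 10.4% held TGCACNC. The κB consensus, found in 7.25% of all windows, was in none of the windows of the members, and the STAT-type palindrome, found in 7.02%, was in 1 window of Nod1. A match describes letters only, and neither Nod1 nor Nod2 passed the test with zinc.

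The wider pathway was read from lists of 100 genes in 8 groups, of which 77 could be tested and 18 had 0 counts in every library. Of these 0 passed the threshold in edgeR in either direction. An unadjusted p under 0.05 was found for 11, all with lower means under zinc. Of these, Icam1 and Ccl20 passed the filter on low counts through water libraries alone, which fixed their direction, and 9 of 75 remain without them. Over all tested genes 2.81% were lower at this p. Of the 11, 7 were response genes, from a list written after lower NF-κB response genes under zinc had been seen in these data. The count over the pathway is therefore no independent evidence of a direction. Of the pathway genes, DESeq2 passed 2 and edgeR without the filter on low counts passed 3, as described with the genes concerned.

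All 23 genes of the relay from the receptor complex to NF-κB were tested. Their median log2 fold change was -0.08, beside 0.01 for all tested genes. Of the 23, 3 had an unadjusted p under 0.05, all lower, beside 2.81% of all tested genes lower at this p. Among these 3, Birc3 and Tnfaip3 are also on the list of response genes. That list was written after lower NF-κB response genes had been seen in these data. Erbin, a scaffold protein that binds NOD2, and Rela, the p65 subunit of NF-κB, had the highest levels of the group per kilobase, at 8.48 and 7.30 CPM per kilobase. Their log2 fold changes were -0.08 (SE 0.123) and -0.17 (SE 0.129). Birc3, which encodes the ubiquitin ligase cIAP2, was at 6.88, 7.17, 9.31 and 9.97 CPM in water and at 3.33, 5.50, 5.33 and 6.71 CPM with zinc. The groups did not overlap, with a log2 fold change of -0.67 (SE 0.218, adjusted p = 0.852 in edgeR). Tnfaip3, which encodes the NF-κB inhibitor A20, was at 5.50, 2.66, 3.89 and 7.26 CPM in water and 1.13, 2.95, 2.73 and 3.68 CPM with zinc, with a log2 fold change of -0.86 (SE 0.350, adjusted p = 0.998 in edgeR).

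The genes that NF-κB is known to induce downstream of the receptors were examined next. Of 17 listed, 6 had 0 counts in every library (Cxcl1, Cxcl2, Cxcl5, Ccl2, Il1b and Il6, all inflammatory chemokines or cytokines), and 9 could be tested. These 9 all had lower means under zinc, 7 of them at an unadjusted p under 0.05 and 0 past the threshold, with a median log2 fold change of -0.58 beside 0.01 over all tested genes, of which 2.81% were lower at this p. Birc3 and Tnfaip3 are among the 7 and were also counted in the relay. Scaled by library totals alone, 4 of the 9 had an unadjusted p under 0.05. Icam1 and Ccl20 reached the filter on low counts in water libraries alone, so they had to differ if tested. Without them 5 of 7 had an unadjusted p under 0.05, and the median was -0.39. Scaled by library totals alone, 2 of these 7 did. The same data had been seen to hold lower NF-κB response genes under zinc when the list was written, so its count is no independent evidence of a direction.

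Nfkbia, which encodes the inhibitor IκBα that NF-κB induces to limit itself, had the highest level of the group per kilobase. Its water libraries were at 25.9, 30.2, 32.9 and 27.8 CPM and its zinc libraries at 24.1, 18.4, 21.1 and 14.9 CPM. All zinc libraries lay below all water libraries, and the log2 fold change was -0.58 (SE 0.146, adjusted p = 0.385 in edgeR). Bcl3, a nuclear partner of NF-κB subunits, had means of 17.8 ± 2.91 CPM (SD) under water and 13.6 ± 2.69 CPM (SD) under zinc (n = 4 each), and its groups overlapped. Its log2 fold change was -0.39 (SE 0.162, adjusted p = 0.998 in edgeR).

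Icam1, which encodes an adhesion molecule, was at 0.625, 0.644, 1.27 and 1.18 CPM in water and at 0.178, 0.0966, 0.198 and 0.0388 CPM with zinc. The groups did not overlap, and the log2 fold change was -2.85 (SE 0.632, adjusted p = 0.179 in edgeR and 0.0210 in DESeq2, 0.0210 to 0.823 over the alternatives). Ccl20, which encodes a chemokine, fared alike on values chosen after they were seen, at 1.23 ± 0.525 CPM (SD, n = 4) in water and 0.244 ± 0.223 CPM (SD, n = 4) under zinc (adjusted p = 0.547 in edgeR). Tnf, also outside the rule for named genes, was too low for the filter, with 8, 21, 15 and 34 counts in water and 0, 0, 3 and 2 counts with zinc. It reached the cutoff of the filter in 3 water and 0 zinc libraries. Without the filter its adjusted p was 0.0138 in edgeR, and over the 6 alternatives that tested it the adjusted p ran from 0.0138 to 0.50. For Nfkbia the adjusted p was 0.0160 without the filter and ran from 0.0160 to 1.00 over its alternatives. Cxcl10, a chemokine gene that was also too low for the filter and was named after its values were seen, went the other way, with 1 count in water replicate 1, 5 counts in zinc replicate 3, 36 counts in zinc replicate 4 and 0 in the other libraries. Without the filter its log2 fold change was 4.54 (adjusted p = 0.189 in edgeR).

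Some marker lists of other cell types had unlike mean sums in the 2 groups, in both directions. As given above, no such difference passed the threshold (exact two-sided permutation test, lowest adjusted p = 0.157). The summed general leukocyte markers ran from 0.0430 to 1.26 CPM in water and from 0 to 0.119 CPM with zinc, with Cd52 at 0 in every library. The summed macrophage and dendritic markers ran from 0.761 to 4.25 CPM in water and from 0.534 to 1.36 CPM with zinc, with Itgax and Fcgr1 at 0 in every library. The highest of these sums came from water replicate 4 (Ptprc at 1.22 CPM) and from water replicate 1 (C1qa at 2.63 CPM). Not all macrophage markers followed C1qa, as Cd68 had a mean of 0.115 CPM in water and 0.312 CPM with zinc, and Itgam had 0.383 and 0.400 CPM. The summed B and plasma cell markers, mostly Cd79b, ran from 0.115 to 0.188 CPM in water and from 0.193 to 0.698 CPM with zinc, without overlap. The enterocyte sum, mostly Fabp2, had a mean of 46.7 CPM in water and 65.6 CPM with zinc. Fabp2 had means of 42.2 and 51.2 CPM, and Sis had 2.03 and 11.5 CPM. Fabp1 and Alpi did not follow, with 0.419 and 0.262 CPM for Fabp1 and 0.241 and 0.230 CPM for Alpi. The stem cell sum, mostly Olfm4, had a mean of 5007 CPM in water and 3680 CPM with zinc. In edgeR the log2 fold change was -0.48 (SE 0.193) for Olfm4 and -0.24 (SE 0.136) for Ascl2. Lgr5 and Smoc2 did not follow Olfm4, at -0.02 (SE 0.162) and 0.06 (SE 0.129). Without water replicate 4, 5 of 9 response genes had an unadjusted p under 0.05 in edgeR, and without water replicate 1, 7 of 10 did. The count was also 5 of 9 without water replicate 3 and 5 of 10 without zinc replicate 1. Over all single libraries left out it ran from 5 to 7. Icam1 and Ccl20, whose direction the filter fixed, are in all these counts. Without those 2 genes, 3 of 7 remained without water replicate 4, and 5 of 8 without water replicate 1. It was 3 of 7 without water replicate 3 and 3 of 8 without zinc replicate 1, and the range was 3 to 5. The gene added in the fits of 10 was Tnf, which reached the cutoff in 3 water and 0 zinc libraries. The part of these markers in the result was not tested.

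**Figure D2:**
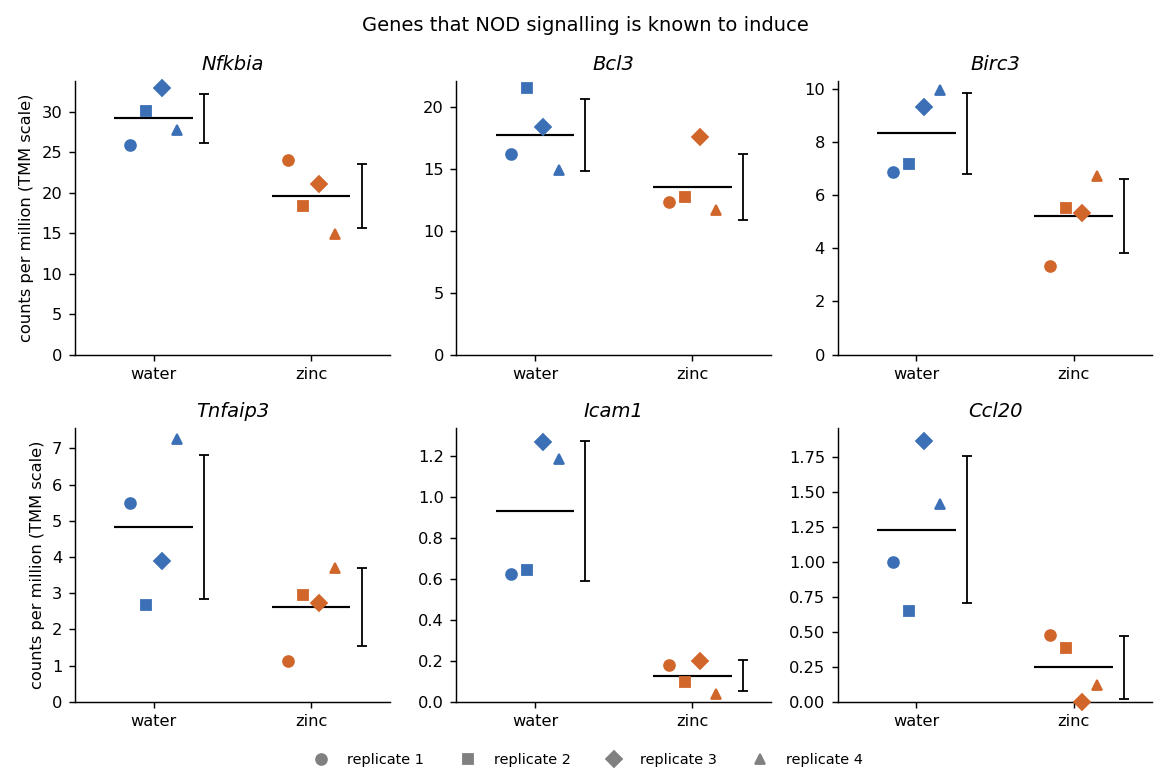
Level of 6 genes that NF-κB is known to induce, in CPM on the TMM scale (vertical axes, each from 0), in 4 water and 4 zinc libraries. Points are libraries, horizontal lines are means and vertical bars are SD. The groups do not overlap in Nfkbia, Birc3, Icam1 and Ccl20, and they overlap in Bcl3 and Tnfaip3. Over all tested genes 2.84% had groups that did not overlap. All 6 genes had an unadjusted p under 0.05 in edgeR, so their overlap cannot be weighed against that share. Nfkb2 (unadjusted p = 0.0427 in edgeR, groups overlapping) and the tested response genes with a higher p are not shown. Icam1 and Ccl20 passed the filter on low counts through water libraries alone.

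Among the other NLR genes, the family to which the receptors belong, levels differed widely. Nlrp6, which has a known role in the intestinal epithelium, was at 17.7 CPM per kilobase. Nlrc4 was at 8.44 and Naip2, a receptor for bacterial secretion system proteins that acts through NLRC4, at 6.88 CPM per kilobase, all above Nod1 at 1.27. Naip2 was named after its values were seen. Of 16 listed, 6 had 0 counts in every library, among them Nlrp3 and Nlrp12, and 9 could be tested. Their median log2 fold change was -0.05. Nlrp6 ranged from 80.1 to 114 CPM in water and from 76.4 to 82.8 CPM with zinc, with a log2 fold change of -0.35 (SE 0.121, adjusted p = 0.881 in edgeR). Ciita, the master regulator of MHC class II genes, was at 2.31, 3.27, 3.85 and 2.25 CPM in water and at 0.594, 0.724, 1.70 and 1.16 CPM with zinc. Its groups did not overlap, and the log2 fold change was -1.46 (SE 0.374, adjusted p = 0.402 in edgeR and 0.0447 in DESeq2).

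**Figure D3:**
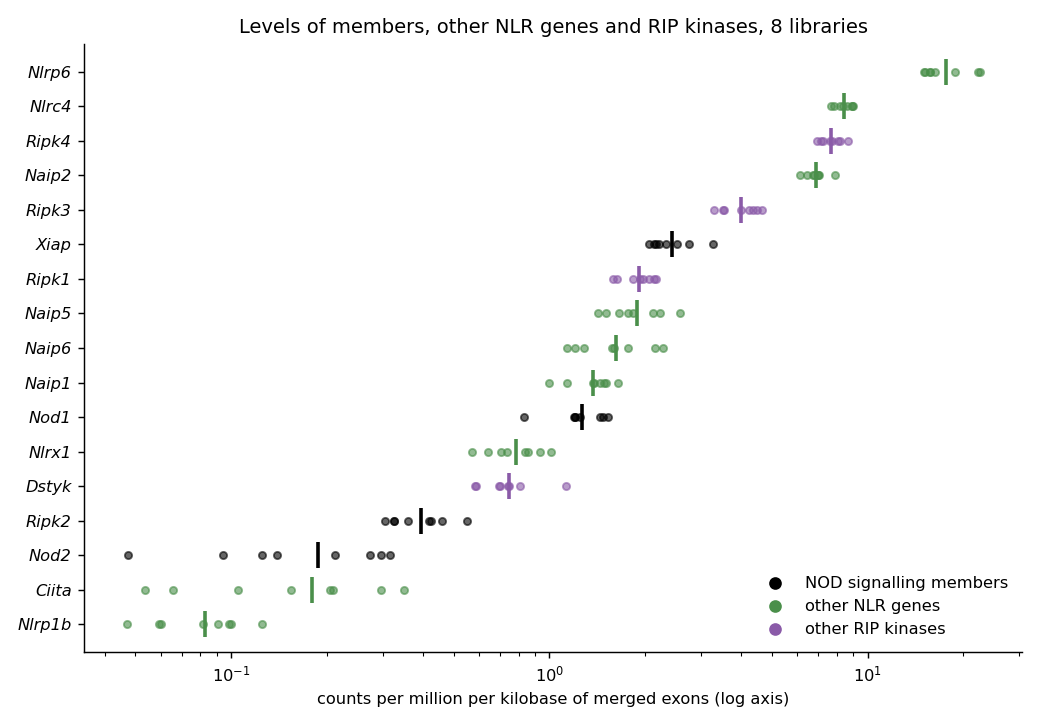
Level per kilobase of merged exons (horizontal log axis, CPM per kilobase) of the tested members, other NLR genes and other RIP kinases. Points are the 8 libraries and the vertical ticks are their means. Nlrp6 and Nlrc4 lead at 17.7 and 8.44, Xiap is at 2.43, Nod1 at 1.27, Ripk2 at 0.395 and Nod2 at 0.188.

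Of 5 other RIP kinases, 4 were tested and none had an unadjusted p under 0.05, with a median log2 fold change of 0.01. Ripk4, a kinase of epithelial differentiation, and Ripk3, the kinase of necroptosis, were at 7.69 and 4.01 CPM per kilobase, both above Ripk2 at 0.395. Their log2 fold changes were 0.05 (SE 0.116) and 0.06 (SE 0.162). Dstyk had a log2 fold change of -0.31 (SE 0.200).

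Genes around the NOD receptors on the supply side were led by the granule proteins. Lyz1, the Paneth cell lysozyme that cleaves peptidoglycan, was at 124721 CPM per kilobase, and Pglyrp1, a peptidoglycan recognition protein, at 313 CPM per kilobase. Their log2 fold changes were 0.05 (SE 0.355) and -0.01 (SE 0.216). Of this list 7 of 13 genes were tested and none had an unadjusted p under 0.05, with a median log2 fold change of -0.14. Slc15a4, a transporter of muropeptides from the endolysosome, and Nagk, the kinase that phosphorylates muramyl dipeptide, were at 0.968 and 2.21 CPM per kilobase. Their log2 fold changes were -0.15 (SE 0.153) and -0.14 (SE 0.157).

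The partners of LRRK2 were present although Lrrk2 itself was not detected. All 14 genes of this list were tested, with a median log2 fold change of 0.06. Of the 14, 1 had an unadjusted p under 0.05, beside 4.65% of all tested genes. Rab10 and Rab2a, small GTPases of vesicle transport, had the highest levels of the list per kilobase, with Rab2a at 25.3 CPM per kilobase. Rab10 had a log2 fold change of 0.02 (SE 0.106) and Rab2a one of 0.04 (SE 0.113). Rab29, which recruits LRRK2 to membranes, had a log2 fold change of 0.47 (SE 0.243). Rilpl2, which binds Rab proteins phosphorylated by LRRK2, had means of 11.3 ± 2.25 CPM (SD, n = 4) in water and 7.59 ± 1.87 CPM (SD, n = 4) under zinc, with overlapping groups. Its log2 fold change was -0.57 (SE 0.200, adjusted p = 0.915 in edgeR).

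Of the autophagy genes tied to NOD2, all 5 were tested and none had an unadjusted p under 0.05, with a median log2 fold change of 0.06. Atg5 and Atg7, both needed to form autophagosomes, were at 8.91 and 5.83 CPM per kilobase, with log2 fold changes of 0.28 (SE 0.142) and 0.03 (SE 0.127), and Irgm1 had 0.07 (SE 0.135). Of 11 genes around XIAP in apoptosis, 10 were tested, and the median log2 fold change was -0.04. Of the 10, 1 had an unadjusted p under 0.05, beside 4.65% of all tested genes. That gene was Birc3, described above. Birc5, or survivin, which is a protein of dividing cells, had a log2 fold change of 0.38 (SE 0.184, unadjusted p = 0.0527).

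**Figure D4:**
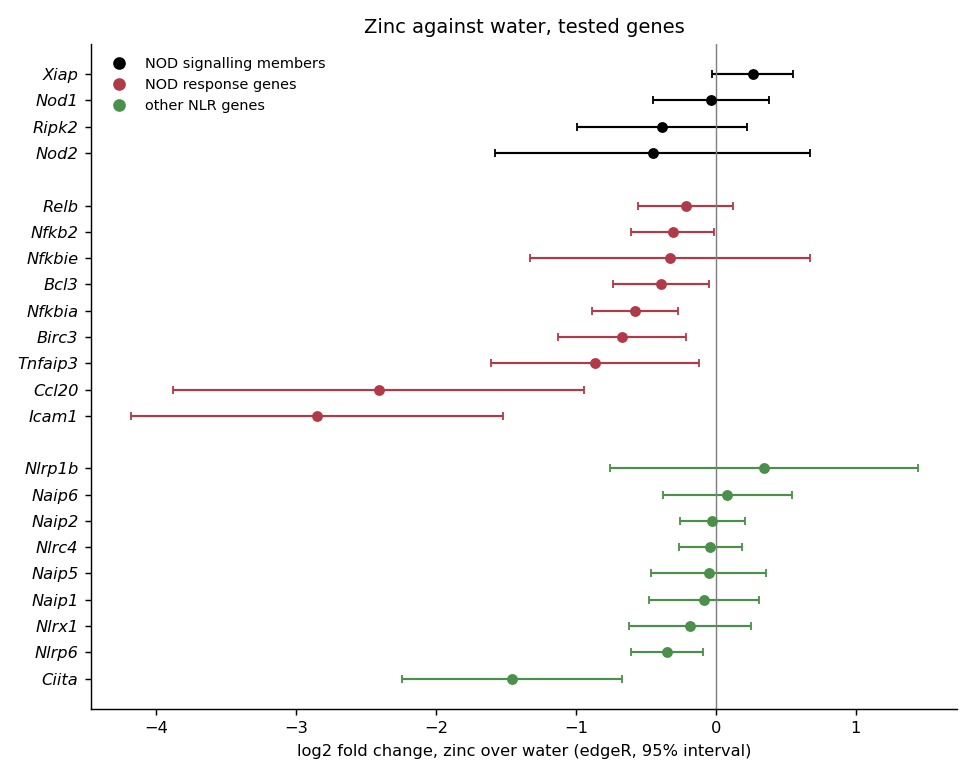
Log2 fold change of zinc over water (horizontal axis, edgeR) with 95% intervals for the tested members, NF-κB response genes and other NLR genes. The intervals of Nod1 (-0.45 to 0.38), Nod2 (-1.58 to 0.68), Ripk2 (-0.99 to 0.23) and Xiap (-0.03 to 0.55) include 0. All tested response genes lie left of 0, from a list written after lower NF-κB response genes had been seen in these data. For Icam1 (-2.85) and Ccl20 the filter on low counts fixed the direction.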

How the data were processed

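Stranded mRNA libraries were made from FACS-sorted Paneth cells of 8 mice (4 water, 4 zinc). The authors deposited raw read counts per Ensembl gene ID, 1 column per library, not normalized. The submitters' processing notes name build mm39, FastQC 0.12.0, STAR 2.7.0a and DESeq2 with no roles. The counting program, whether it kept strands apart and how it placed multi-mapped reads were not given in the sources used here. IDs were matched to GENCODE M39 on GRCm39 (54749 of 55414).

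The deposited counts were tested in edgeR 4.0.16 in R 4.3.3 (limma 3.58.1), with treatment as the only term. The filter on low counts (minimum 10), TMM scaling, robust quasi-likelihood F tests and Benjamini-Hochberg adjustment over 11988 genes (threshold 0.05) were used. Each SE was derived from the fold change and its F statistic (|log2 fold change|/√F). Levels are compared between genes per kilobase of merged exons. Log2 CPM for correlations used a prior count of 2, and ratios of counts used 0.5. Sequences came from RefSeq (GRCm38.p6) and were placed on GRCm39 by exact match. Exact tests were run in Python 3.11.15. Scripts were tested on simulated data.

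All pairs of libraries in a group differed by more than sampling noise (chi-square over degrees of freedom at least 31.2), so each counted as 1 replicate. Same-numbered libraries did not deviate together in every pair, so the numbers were not taken as pairs. The alternatives were RLE factors, library totals, Defa genes left out, DESeq2 1.42.0, limma-voom, a minimum mean count of 50 or no filter, a block for the replicate number, and each library left out in turn.

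The members and gene lists were chosen with earlier results of these data known. Named were the members and, of each list, the 2 tested genes with the highest level per kilobase, the 2 with the smallest p and any past the threshold. For each tested member, the 3 genes of at least 5 CPM most correlated with it were named too, and Mt1, Mt2 and Slc30a1 checked the zinc label. Some genes that this rule names are not reported here. Others are said to be chosen after their values were seen.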

Additional observations from a re-analysis of the deposited data

Results flagged for a closer look

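Of 81 groups of 4 libraries checked, 9 held a library that stood apart from the other three by Dixon's criterion, which chance meets in about 1 of 20 groups. Among the members this was Nod1, at 8.745 CPM in water replicate 4 against 7.13 to 7.38 in the other water libraries. Water replicate 4 also stood apart in Birc5 at 22.57 CPM (others 12.9 to 14.1) and in the summed general leukocyte markers at 1.26 CPM (others 0.0430 to 0.188). Erbin was at 99.64 CPM in zinc replicate 3 (others 90.2 to 91.3), and Slc15a4 was at 16.81 CPM in zinc replicate 1 (others 13.5 to 13.8). Dstyk was at 10.7 CPM in water replicate 3 (others 6.68 to 7.13). The leukocyte markers summed to 0.1185 CPM in zinc replicate 3 and to 0 in the other zinc libraries. The goblet markers summed to 5695 CPM in zinc replicate 4 (others 3425 to 3655), and the stromal and endothelial markers to 0.6254 CPM in water replicate 1 (others 0 to 0.0846).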

How the results depend on the processing

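No member passed the threshold under any of the 16 alternatives of the fit, of which the mean count of at least 50 dropped Nod2. Ripk2 stayed between -0.50 and -0.27 and Xiap between 0.14 and 0.37 on the log2 scale. Leaving out single libraries gave 0.037 for Nod1 without water replicate 4 and 0.1086 without zinc replicate 1, with a range of -0.14 to 0.11, and -1.05 to -0.18 for Nod2. The log2 ratio of Nod2 to Ripk2 turned to 0.17 without zinc replicate 1 (-0.69 to 0.17 over the libraries left out, chosen after seeing the data). In water libraries alone the steps of the order were 0.79, 1.53 and 1.14 on the log2 scale, and 4 libraries cannot give an exact sign-flip p below 0.125. Over all genes, DESeq2 passed 34, no filter 66, and leaving out a library 1 (without water replicate 2) to 15, with 4 without water replicate 3 and 3 without zinc replicate 2. With the replicate number as a block 32 genes passed, 0 of them pathway genes. Same-numbered libraries correlated by 0.0001 to 0.263 in their deviations, over 0.1 in 3 of 4 pairs, and 3 of 4 water and 3 of 4 zinc libraries correlated best with their own number. TMM factors were also alike by number (0.764 and 0.775, 1.02 and 0.998, 1.07 and 1.05, 1.21 and 1.23), a hint from the data and not the design. Of the pathway genes, DESeq2 passed 2 (Icam1 and Ciita) and no filter 3 (Ciita, Nfkbia and Tnf). Response genes lower at an unadjusted p under 0.05 numbered 4 with library totals as scaling and 5 to 7 without single libraries, alternatives chosen after seeing the data. Without Icam1 and Ccl20, whose direction the filter fixed, these numbers were 2 and 3 to 5. No fit could be made for Lrrk2. The low counts of Nod2 limit what can be seen.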

Other observations

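Slc15a2, a peptide transporter that carries muramyl dipeptide, was near 0 in both libraries numbered 1, at 0.0625 CPM in water replicate 1 and 0 in zinc replicate 1. The other water libraries were at 3.57, 3.55 and 1.83 CPM and the other zinc libraries at 3.04, 1.70 and 2.09 CPM. Its log2 fold change with zinc was -0.40 (SE 1.06). It was singled out after its values were seen.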
